A study of Mus musculus with 6 samples.

Results

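The interferon-stimulated genes described here are 42 genes that type I or type II interferon induces in most cells, chosen by name from general knowledge of the pathway, with earlier results of these data known. All 42 were found by symbol among the 47643 gene identifiers counted in each library, of which 21717 had a count in any tumor and 12088 passed a filter on low counts. The 42 genes were sorted by role into regulators, sensors of nucleic acids, IFIT proteins, the OAS family, the ISG15 system, antiviral effectors, interferon-induced GTPases, the PARP9 group and 4 other induced genes.

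The RNA came from epithelial tumor cells, sorted as EPCAM+ CD45- cells (the study's methods also exclude CD31+ and PDGFRα+ cells), from breast tumors of 6 mice of the MMTV-PyMT model (line FVB/N-Tg(MMTV-PyVT)634Mul/J), in which the polyoma middle T antigen is driven by a viral promoter active in mammary epithelium. All 6 mice carried the transgene and were given the anti-VEGF-A antibody B20-4.1.1 at 5 mg/kg by intraperitoneal injection, 2 times per week for 6 weeks from 7 weeks of age. The libraries thus form 1 group, with no untreated tumor beside them, and the labels do not give the class of low or high hypoxia for a sample. Values are therefore given for tumors 1 to 6, and what can be asked is how strongly these genes were expressed, how far the tumors differed, and whether levels followed a hypoxia score computed from the same libraries. The tumors carry different mouse identifiers, and the p-values below measure the spread between these 6 libraries only.

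Interferons bind receptors that activate the kinases JAK1, JAK2 and TYK2 and, through them, transcription factors that enter the nucleus. STAT2 and IRF9 are subunits of the complex ISGF3, which binds the interferon-stimulated response element (ISRE), and the response to interferon γ also runs through the gamma-activated site (GAS). The induced proteins sense foreign nucleic acids, block steps of viral replication and feed back on the pathway, and many are also present at a low level in cells without an infection.

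Libraries were made with a 3′ method, which reads the polyadenylated end of transcripts. Counts on genes lay between 2509482 and 5893246 per library, and 16.1 to 41.4% of the reads were assigned to no gene. Levels are given as TMM-scaled CPM, the count of a gene relative to the total of its library, scaled by the trimmed mean of M values. On this scale, 3 counts correspond to between 0.495 and 1.24, depending on the library. The defining epithelial genes were present in every tumor, with Epcam between 613 and 1067 TMM-scaled CPM. The library of tumor 1 stood apart, with the middle 50% of all 12088 genes between -0.57 and 0.49 on the log2 scale around the mean of each gene, against -0.20 to 0.24 in tumor 3. Tumor 3 held transcripts of other cells. Its 17 leukocyte markers summed to 222 TMM-scaled CPM against 16.1 to 52.7 in the other tumors, and its 5 erythroid markers to 816 against 5.63 to 67.4. Of the leukocyte markers, Lyz2 gave 140 of the 222, Ptprc (the gene of CD45) stood at 3.20, 4 (Cd3g, Cd8a, Cd79a and Flt3) were at 0 in every tumor, and 9 of 17 exceeded 3 counts in any tumor. Endothelial and fibroblast markers summed to at most 3.91 and 22.9 TMM-scaled CPM. Results that rest on tumor 1 or 3 are given with and without them.

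The DNA in front of these genes holds the elements named above, and the stretches below are shown because they carry the ISRE core in members whose levels are described further on. Of the 42 genes, 32 matched a RefSeq promoter (38 promoters in all), the 250 bases before the gene's start in GRCm38.p6. Not matched were Dhx58, Ifi27, Iigp1, Mx1, Mx2, Parp14, Parp9, Rtp4, Usp18 and Zbp1. The ISRE core, searched as GAAANNGAA on both strands, was found in 14 of the 32 genes (43.8%), against 8.18% of all 27025 genes with a promoter in the table. The GAS, searched as TTCNNNGAA, which reads the same on both strands, was found in 8 of the 32 (25%), against 8.13% of all genes. A base run can count for both motifs, and these shares describe the list and were not tested. Among the members with the ISRE core, 7 held it more than once. The genes with the ISRE core were Stat2, Ifih1, Ifit1, Ifit3, Oas1a, Isg15, Trim25, Rsad2, Bst2, Gbp2, Gbp3, Gbp7, Irgm1 and Igtp. The 8 stretches printed are those with the highest mean level in TMM-scaled CPM among them. They are read 5′ to 3′ on the strand of the gene from the reference genome, which is of another strain than FVB/N. Capitals mark the ISRE core or its reverse complement.
Trim25: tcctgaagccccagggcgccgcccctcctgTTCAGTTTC
Rsad2: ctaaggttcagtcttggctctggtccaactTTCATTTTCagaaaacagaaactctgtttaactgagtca
Igtp: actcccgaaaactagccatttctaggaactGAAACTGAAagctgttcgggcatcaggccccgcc
Gbp7: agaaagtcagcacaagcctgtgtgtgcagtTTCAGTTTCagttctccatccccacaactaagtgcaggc
Isg15: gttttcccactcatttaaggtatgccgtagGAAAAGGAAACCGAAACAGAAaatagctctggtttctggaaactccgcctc
Ifih1: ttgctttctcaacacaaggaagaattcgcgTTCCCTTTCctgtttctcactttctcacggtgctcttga
Ifit1: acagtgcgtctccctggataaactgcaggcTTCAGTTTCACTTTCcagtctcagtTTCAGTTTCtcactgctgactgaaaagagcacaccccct
Stat2: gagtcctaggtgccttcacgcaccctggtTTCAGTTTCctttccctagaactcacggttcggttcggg

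These stretches lie at chr11:88999364-88999402 (+ strand) for Trim25, chr12:26456533-26456601 (- strand) for Rsad2, chr11:58199492-58199555 (+ strand) for Igtp and chr3:142530254-142530322 (+ strand) for Gbp7. They lie at chr4:156200846-156200926 (- strand) for Isg15, chr2:62646329-62646397 (- strand) for Ifih1, chr19:34640750-34640843 (+ strand) for Ifit1 and chr10:128270248-128270315 (+ strand) for Stat2. The core began 9 bases before the start of Trim25, 34 before that of Igtp and 52 before that of Gbp7. In Isg15, 3 overlapping matches began between 66 and 78 bases before the start, and in Ifit1 3 matches began between 84 and 109 bases before it. The match of Ifih1 began 112 bases, that of Rsad2 119 bases and that of Stat2 221 bases before the start. In 35 of the 38 member promoters, the bases after the start lay in an annotated transcript of the gene. The promoter of Stat2 was not among them, so its distance is less certain. A match is a stretch of letters and does not show that a factor bound there in these cells.

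Transcripts of all 42 interferon-stimulated genes were detected in these libraries of sorted epithelial cells. Leukocyte markers were also present in every library (summed 16.1 to 222 TMM-scaled CPM), and which cells carried the transcripts was not tested. Each had a count in every tumor and passed the filter, and 41 exceeded 3 counts in all 6 tumors, the exception being Ifit2 with 3 counts in tumor 2 (95% Poisson interval of 0.619 to 8.77 counts, for counting error only). Their levels summed to 3045, 2625, 2974, 2479, 2639 and 2741 TMM-scaled CPM in tumors 1 to 6, a range within which tumors 1 and 3 were the highest. Without these tumors the median of the sums was 2589, against 2690 with them. The mean level was 100 TMM-scaled CPM or more for 7 genes, between 10 and 100 for 30 and under 10 for 5, with a median of 31.7 against 25.4 over the 12088 genes. Ifitm3, Ifi27 and Irf1 together gave 34.4 to 45.4% of the summed level, depending on the tumor.

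For the order given here, levels of different genes were set side by side per length, as TPM, although in a 3′ library the division by length favors short genes. On this scale, Ifitm3, whose membrane protein blocks the fusion of viruses with endosomes, was the highest with a mean of 1857 TPM (range 1091 to 2773). Ifi27, an interferon-induced mitochondrial protein, followed with 509 TPM (396 to 709), and on this scale its range did not overlap that of Ifitm3. On TMM-scaled CPM, without the division by length, the ranges overlapped (291 to 713 for Ifitm3, 227 to 388 for Ifi27). In tumor 3 Ifi27 was then the higher of these genes, at 388 against 380, so their separation depends on the scale. The next genes in the order could not be separated by their ranges. These were Irf1 with 167 TPM (102 to 217), Isg15 with 156 TPM (63.8 to 230), Rtp4 with 146 TPM (103 to 204) and Lgals3bp with 117 TPM (75.6 to 187). Isg15 ranked 4 of the 42 genes per length and 18 by TMM-scaled CPM, so its place depends on the scale. The lowest were Oasl1 with 3.91 TPM (2.49 to 6.00), Oas1a with 2.98 TPM (1.61 to 5.85) and Ifit2 with 1.86 TPM (0.802 to 2.85), whose ranges overlapped.

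**Figure D1:**
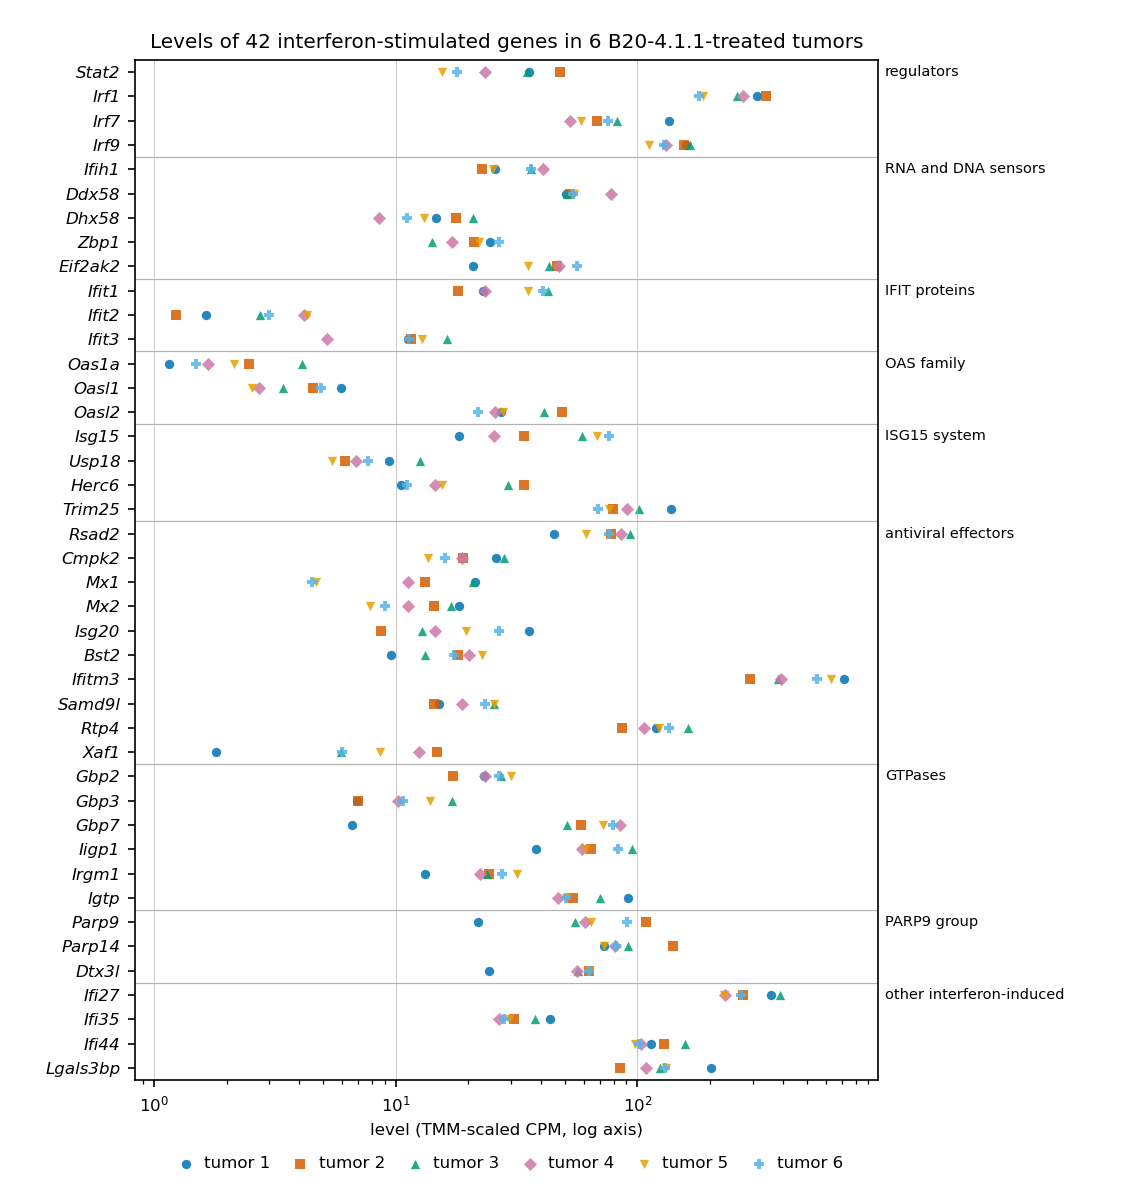
Level of each of the 42 interferon-stimulated genes (rows, sorted by role) in TMM-scaled CPM on a log axis, with 1 point for each of the 6 tumors. Ifitm3 lies between 291 and 713, whereas Ifit2 and Oas1a stay below 5, and Gbp7, Xaf1, Parp9 and Dtx3l each have a single low point, that of tumor 1.

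The levels of 41 of the 42 genes differed between the 6 libraries by more than counting error (edgeR likelihood ratio test with the dispersion set to 0, adjusted p under 0.05), against 89.5% of the 12088 genes, so the share was near that of all genes. The exception was Oas1a, with 6 to 18 counts per tumor and an adjusted p of 0.0529. Whether the molecular identifiers of these libraries were used in counting is not given, so the counting error in this test may be set too low. Without tumors 1 and 3, the test called 31 of the 41 members that then passed the filter (75.6%), against 69.5% of all genes. The spread was not wider than usual for the table. The biological coefficient of variation that edgeR estimated had a median of 33.7% over the 42 genes and of 35.4% over all genes, and it exceeded its trend in 8 of the 42 (19.0%), against 33.1% of all genes. These 8 were Gbp7, Isg15, Mx1, Parp9, Xaf1, Isg20, Herc6 and Stat2. On TMM-scaled CPM + 1, the highest tumor exceeded the lowest by a median of 2.26-fold over the 42 genes and 2.30-fold over all genes. Without the added 1, the median over the 42 genes was 2.36-fold, from 1.47-fold for Irf9 to 12.9-fold for Gbp7. Ratios over 2-fold were found for 28 genes and over 4-fold for 6. The shares of all genes past these ratios were not computed, so these counts and those below do not set the list apart from other genes. Leaving out a tumor cannot raise such a ratio. Without tumor 1 the median ratio was 1.89-fold, 17 genes exceeded 2-fold and only Mx1 exceeded 4-fold, with 4.63-fold. These ratios were not computed with another single tumor left out, nor over all genes without tumor 1. Of all genes, 32.5% were highest and 31.0% lowest in tumor 1. Without tumors 1 and 3 the median was 1.69-fold and 12 genes exceeded 2-fold.

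The regulators of the pathway all had counts in every tumor. Stat2, a subunit of ISGF3, had 35.8, 47.9, 34.8, 23.4, 15.6 and 18 TMM-scaled CPM in tumors 1 to 6. Irf9, the DNA-binding subunit of ISGF3, had 159, 156, 165, 131, 112 and 128. Both were higher in each of tumors 1 to 3 than in any of tumors 4 to 6. Irf1, a transcription factor that interferon γ induces strongly, had 312, 340, 257, 274, 187 and 180, with the lowest levels in tumors 5 and 6. Irf7, the regulator of type I interferon genes, stood at 135 in tumor 1, above the 52.4 to 82.6 of the other tumors. In Irf7, 45 of the last 300 exon bases overlap Phrf1 on the opposite strand.

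Among the sensors, Ddx58 (RIG-I) and Ifih1 (MDA5), which detect viral RNA in the cytosol, were both highest in tumor 4. Ddx58 had 50.4, 52.8, 51.0, 77.8, 54.5 and 54.0 TMM-scaled CPM in tumors 1 to 6, so 5 tumors lay close together and tumor 4 above them. Ifih1 lay between 22.7 and 40.7. Dhx58 (LGP2), which modulates both sensors, went the other way in tumor 4, where it had its lowest level of 8.55, against 11.1 to 20.8 elsewhere. Zbp1, a sensor of nucleic acids in the Z form, lay between 14.2 and 26.8, and it was the only member at its lowest in tumor 3. Eif2ak2 (PKR), a kinase that halts translation on sensing double-stranded RNA, had 20.9 in tumor 1 and 35.4 to 56.4 in the other tumors.

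The IFIT proteins bind viral RNA and limit its translation. Ifit1 had 23.1, 18.2, 42.8, 23.4, 35.2 and 40.5 TMM-scaled CPM in tumors 1 to 6, with tumors 3, 5 and 6 above the other tumors. Ifit3 lay between 5.22 in tumor 4 and 16.3 in tumor 3. Ifit2, its neighbor on chromosome 19, rested on 3 to 22 counts per tumor (1.24 to 4.30 TMM-scaled CPM). In the OAS family, which includes enzymes that activate RNase L, Oasl2 had 48.7 and 41.2 in tumors 2 and 3 and 21.9 to 27.9 in the other tumors. Oasl1 (2.54 to 5.93) and Oas1a (1.15 to 4.12) were near the limit of detection, and 21.1% of the windows of 50 bases at the 3′ end of Oas1a also occur in Oas1g, so its counts are uncertain.

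In the ISG15 system, all 4 genes lay above their mean in tumor 3. Isg15, a ubiquitin-like protein that is attached to other proteins, had 18.3, 33.8, 59.1, 25.5, 68.0 and 76.1 TMM-scaled CPM in tumors 1 to 6, 4.16-fold between the ends of this range. Usp18, which removes ISG15 and dampens the type I receptor, lay between 5.47 in tumor 5 and 12.6 in tumor 3. Herc6, the ligase for ISG15 in mice, had 10.5, 33.8, 29.1, 14.6, 15.6 and 11.1, so tumors 2 and 3 were set apart from the other 4. Trim25, a ubiquitin ligase that acts on RIG-I, lay between 68.8 and 102 in 5 tumors and reached 137 in tumor 1.

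Of the 10 antiviral effectors, Ifitm3 had 713, 291, 380, 393, 634 and 552 TMM-scaled CPM in tumors 1 to 6. Rsad2 (viperin), which makes a chain-terminating nucleotide, had 45.2, 77.6, 93.2, 85.5, 61.5 and 76.5, the lowest in tumor 1. Cmpk2, the nucleotide kinase beside it on chromosome 12, had 26.0, 19.0, 28.2, 18.8, 13.7 and 16.1, with tumor 1 among the highest. Mx1, a dynamin-like GTPase that blocks influenza virus, had 21.3, 13.2, 20.8, 11.3, 4.69 and 4.50, and Mx2, its neighbor on chromosome 16, had 18.3, 14.4, 16.9, 11.3, 7.81 and 9.0. The annotation lists Mx2 as a polymorphic pseudogene, and whether either gene made a working protein in these mice was not tested. Both Mx genes were highest in tumors 1 and 3 and lowest in tumors 5 and 6. Isg20, an exonuclease for RNA, lay between 8.67 in tumor 2 and 35.8 in tumor 1, whereas Xaf1, which binds the apoptosis inhibitor XIAP, had 1.81 in tumor 1 and 5.95 to 14.9 elsewhere. Bst2 (tetherin), which holds virus particles at the membrane, lay between 9.56 and 22.7, Samd9l between 14.4 and 25.6, and Rtp4 between 86.7 and 163.

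The interferon-induced GTPases act against pathogens inside vacuoles. Gbp7 had 6.59, 58.2, 51.3, 84.9, 72.3 and 79.5 TMM-scaled CPM in tumors 1 to 6, so that tumor 1 lay far below the other 5. The level of Gbp3, which lies in the same cluster on chromosome 3, was 6.92 in tumor 1 and 7.02 in tumor 2, against 10.2 to 17.2 in the other tumors. Gbp2, in the same cluster, lay between 17.3 and 30.1, with 23.2 in tumor 1. Of the immunity-related GTPases, Iigp1 (37.9 to 94.8) and Irgm1 (13.2 to 31.8) were lowest in tumor 1, whereas Igtp was highest there, with 91.5 against 47.1 to 70.3. In the PARP9 group, Parp9, which binds ADP-ribose and pairs with the ubiquitin ligase DTX3L, had 21.9, 108, 55.4, 60.9, 64.1 and 90.4. Dtx3l had 24.4, 63.1, 56.8, 56.3, 63.1 and 63.2, with tumor 1 below 5 tumors that lay close together. Parp14, an ADP-ribosyltransferase next to both on chromosome 16, had 72.7, 141, 91.8, 80.9, 72.8 and 81.4, with tumor 2 above the rest and no gap below tumor 1. Parp9 and Dtx3l lie on opposite strands and share 458 exon bases, none of them in the last 300 exon bases of either gene.

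Of the other 4 induced genes, Ifi27 lay between 227 and 388 TMM-scaled CPM, Ifi44 between 97.8 and 158, Ifi35 between 26.7 and 43.5 and Lgals3bp, which encodes a secreted glycoprotein, between 84.6 and 202. Ifi27 and Ifi35 were higher in tumors 1 and 3 than in any other tumor, and Lgals3bp had a single high level, that of tumor 1.

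**Figure D2:**
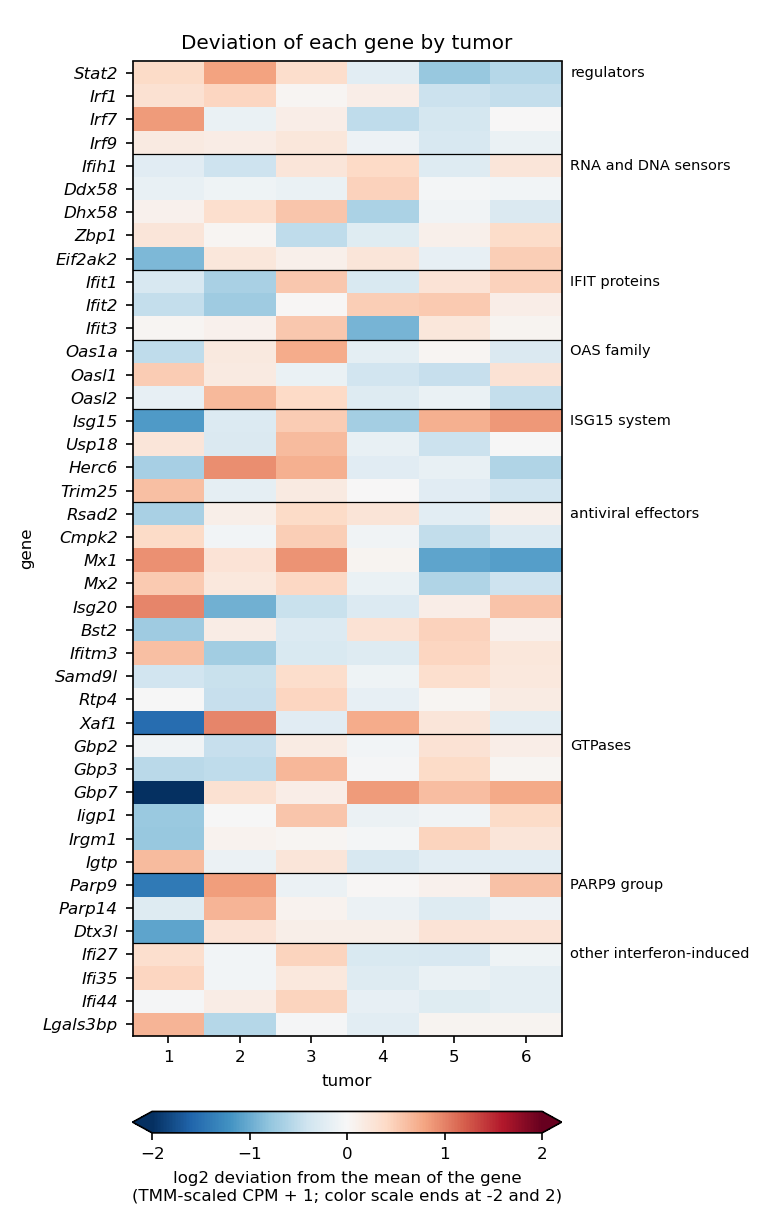
Deviation of each of the 42 genes (rows, sorted by role) in each tumor (columns) from the mean of that gene over the 6 tumors, as log2(TMM-scaled CPM + 1), from blue (lower) to red (higher) on a scale that ends at -2 and 2. The column of tumor 3 is mostly red, with 33 of 42 genes above their mean, and that of tumor 1 holds the deepest blue and much of the deepest red.

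Gene by gene, tumor 3 had the highest median level over the list, although the summed level was higher in tumor 1. The median deviation of the 42 genes from their own mean, on the log2(TMM-scaled CPM + 1) scale, was -0.04, 0.05, 0.23, -0.12, -0.07 and 0.04 in tumors 1 to 6, whereas the median over all 12088 genes stayed between -0.02 and 0.03. In tumor 3, 33 of the 42 genes (78.6%) lay above their mean, against 52.1% of all genes. In tumor 4, 13 of the 42 (31.0%) did, against 47.6%. The median in tumor 3 lay between 0.19 and 0.28 with any other tumor left out (0.28 without tumor 1), and the 4 scalings tried gave 0.22 to 0.32. By role, the medians in tumor 3 were 0.57 for the ISG15 system, 0.54 for the IFIT proteins, 0.40 for the OAS family and 0.36 for the antiviral effectors, and 0.07 for the PARP9 group. The higher levels in tumor 3 went with the leukocyte and erythroid transcripts described above, and the part of these cells in the result was not tested. In a library of sorted cells, more cells that carry a transcript and more of it per cell cannot be told apart.

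Tumor 3 held the highest level of 14 of the 42 genes, while 12.1% of all genes were highest there. These were Irf9, Dhx58, Ifit1, Ifit3, Oas1a, Usp18, Rsad2, Cmpk2, Samd9l, Rtp4, Gbp3, Iigp1, Ifi27 and Ifi44. Only 1 member, Zbp1, was lowest in tumor 3, where 9.62% of all genes were. The counts of members that were highest in tumors 1, 2, 4, 5 and 6 were 10, 7, 3, 4 and 4, beside 32.5, 19.0, 9.77, 16.9 and 9.77% of all genes. The counts of members that were lowest in these tumors were 15, 9, 5, 8 and 4, beside 31.0, 21.4, 10.6, 15.2 and 12.1% of all genes. Tumor 1 thus held members at both ends of the range, as it held genes of the whole table at both ends, while its median deviation stayed near 0.

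**Figure D3:**
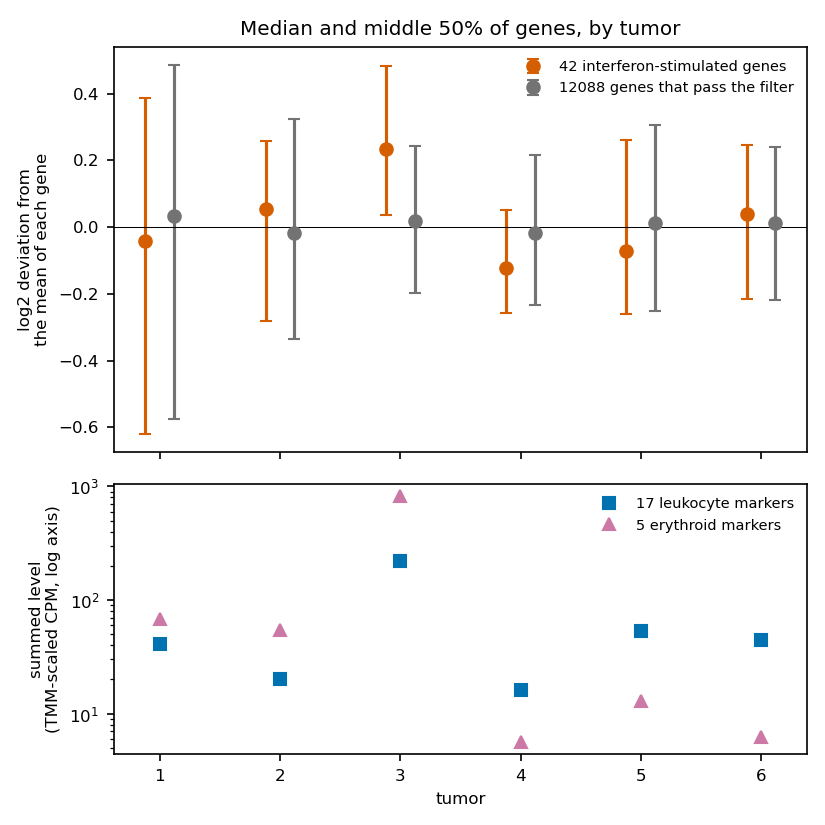
The upper panel gives the median (point) and the middle 50% (bar) of the log2 deviations of the 42 interferon-stimulated genes and of the 12088 genes that pass the filter, by tumor. The lower panel gives the summed level of 17 leukocyte and 5 erythroid markers in TMM-scaled CPM on a log axis, and tumor 3 has the highest value in both panels.

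The mouse identifiers in the labels have 2 prefixes, QAF for tumors 1, 4, 5 and 6 and QSD for tumors 2 and 3, and what they stand for is not given in the sources used here. In 6 of the 42 genes (Dhx58, Oas1a, Oasl2, Herc6, Parp14 and Ifi44) both QSD tumors lay above all QAF tumors, as did 8.44% of all genes. In 2 of the 42 (Isg20 and Ifitm3) both lay below, as did 6.78% of all genes. This split was looked at after the values were seen and no test was made.

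Within these tumors, the study asks how hypoxia under VEGF-A blockade changes the tumor cells, and the hypoxia score of its methods, the mean TPM of Vegfa, Slc2a1 and Car9, was computed for each library. The score was 48.5, 37.2, 51.4, 76.6, 94.4 and 47.3 TPM in tumors 1 to 6, highest in tumors 4 and 5. None of the 42 genes had a slope on the score that passed the test (edgeR's quasi-likelihood test with Benjamini-Hochberg adjustment, adjusted p between 0.954 and 0.993), nor did any of the 12088 genes (0.0%). The 3 genes that make up the score did not pass this test either. Their slopes, as log2 change per doubling, were 1.51 for Car9 (adjusted p 0.755), 1.29 for Vegfa (0.863) and 0.68 for Slc2a1 (0.954). With 6 tumors, slopes of this size in members could thus go uncalled. At an unadjusted p under 0.05 the test gave 512 genes, 1 of them a member, and DESeq2 called 15 genes after adjustment, none of them a member.

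The slopes, as the log2 change of a gene per doubling of the score, lay between -0.98 and 1.14 with standard errors of 0.32 to 0.73. Slopes were negative for 26 of the 42 genes (61.9%), against 53.2% of all genes, with a median of -0.14 over the list and -0.04 over all genes (median over the list -0.03, and 22 negative, with the identifier prefix as a term). The member with the unadjusted p under 0.05 was Stat2, with a slope of -0.98 (SE 0.39, adjusted p 0.954 by edgeR). The same test gave -0.97 (SE 0.73) for Mx1, -0.85 (SE 0.53) for Oasl1 and 1.14 (SE 0.56) for Ifit2, the last on 3 to 22 counts per tumor. Tumor 5, with the highest score, had the lowest level of Stat2, but tumor 6, with a score near the lowest, had the next lowest. The standard error had a median of 0.41 over the 42 genes. Without tumors 1 and 3, no member passed either, and 25 of the 41 tested slopes (61.0%) were negative, against 49.4% of all genes.

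**Figure D4:**
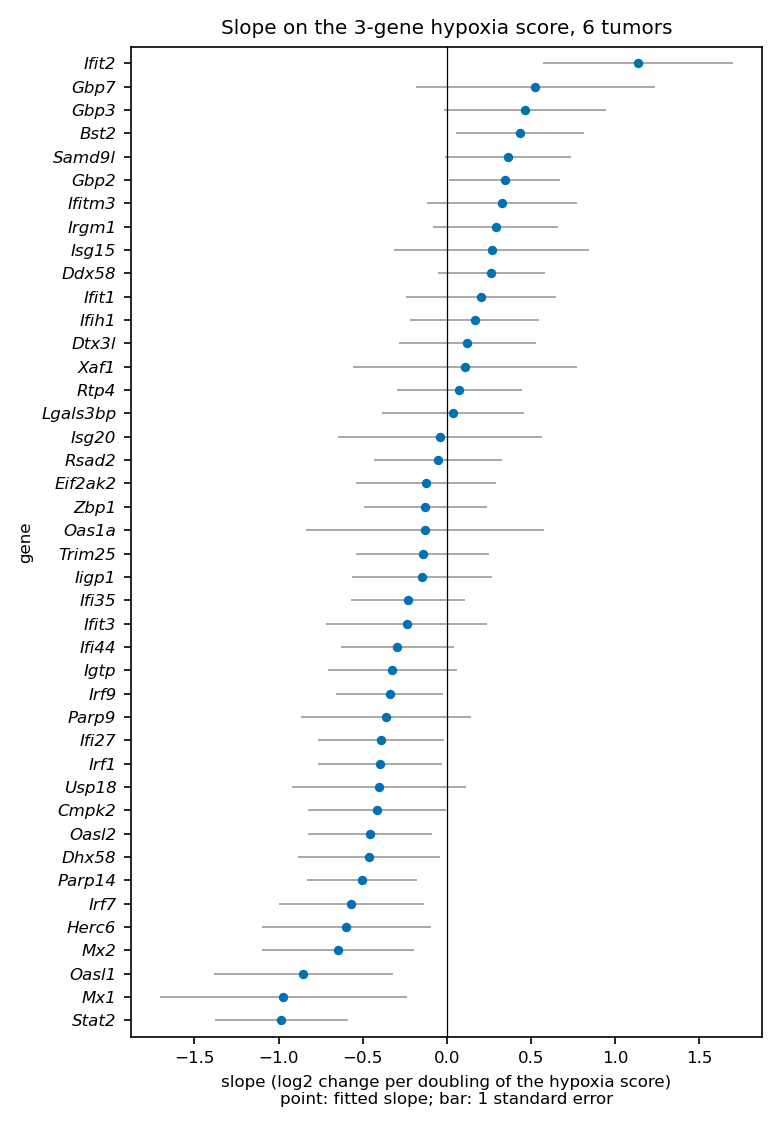
Slope of each of the 42 genes on log2 of the 3-gene hypoxia score over the 6 tumors, from edgeR's quasi-likelihood fit, as the log2 change per doubling of the score (point) with 1 standard error to each side (bar). Slopes run from -0.98 for Stat2 to 1.14 for Ifit2 and most bars cross or reach close to 0.

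For 10 pairs of members with linked roles, the levels were compared across the 6 tumors as log2(TMM-scaled CPM + 1), with two-sided exact permutation tests over the 720 orders of the tumors, in which the smallest possible p is 0.00139. Mx1 and Mx2 varied together, with Pearson's r of 0.97 (exact permutation p = 0.00417, adjusted over the 10 pairs 0.0417) and Spearman's rho of 0.94 (exact permutation p = 0.0167, adjusted 0.167). Leaving out tumors 5 and 6, the farthest from the median of Mx1, r was 0.95. Parp9 and Dtx3l gave r of 0.93 (exact permutation p = 0.00833, adjusted 0.0417) and rho of 0.89 (exact permutation p = 0.0333, adjusted 0.167), and r was 0.73 without tumors 1 and 2, so the size of this relation rested in part on tumor 1. Within the 4 QAF tumors, r was 0.96 for Mx1 and Mx2 and 0.97 for Parp9 and Dtx3l, given without a test. These tumors include tumor 1, and without tumor 1 alone the r of Parp9 and Dtx3l was 0.74. The 2 QSD tumors allow no such value. With library totals in place of TMM, neither adjusted p stayed under 0.05 (r of 0.98 and 0.90).

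The other 8 pairs did not pass after adjustment. Stat2 and Irf9, subunits of ISGF3, gave r of 0.92 (exact permutation p = 0.0278, adjusted 0.0799) and rho of 0.77 (exact permutation p = 0.103, adjusted 0.206), with r of 0.96 without tumors 2 and 5. Irf1 and Gbp2, a GTPase gene that IRF1 is known to induce, had an r of -0.82 (exact permutation p = 0.0319, adjusted 0.0799), rho of -0.83 (exact permutation p = 0.0583, adjusted 0.194) and r of -0.90 without tumors 5 and 6 but -0.52 with library totals in place of TMM. For Rsad2 and Cmpk2, adjacent genes that are often induced together, r was -0.01 (exact permutation p = 0.986, adjusted 0.986) and rho 0.37 (exact permutation p = 0.497, adjusted 0.622). Without tumor 1, the r of this pair was 0.90. The remaining pairs had r between -0.81 (Irgm1 and Igtp) and 0.73 (Oas1a and Oasl2), with adjusted exact permutation p between 0.139 and 0.986, and rho between -0.37 and 0.77. Irgm1 and Igtp gave r of -0.05 without tumors 1 and 5, and Oas1a and Oasl2 gave 0.90 without tumors 1 and 3.

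**Figure D5:**
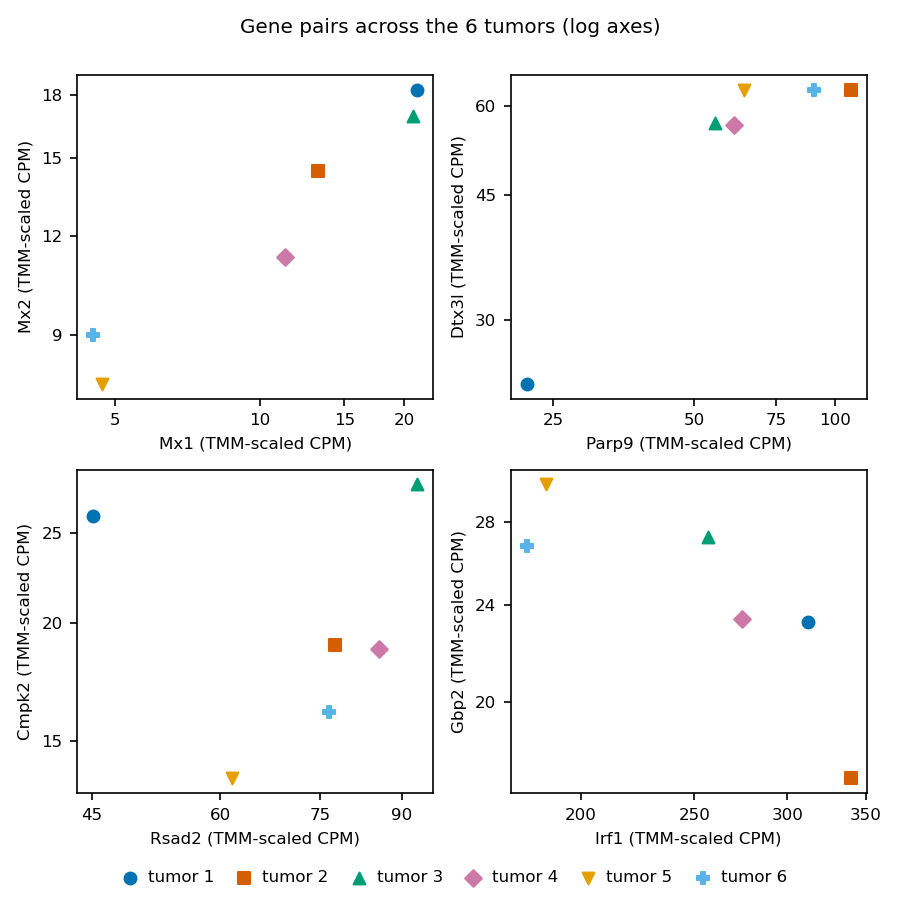
Levels of 4 gene pairs in the 6 tumors, each axis in TMM-scaled CPM on a log scale, with 1 point per tumor. The points of Mx1 and Mx2 lie near a line, those of Parp9 and Dtx3l are spread by the low point of tumor 1, tumor 1 stands off from the other 5 in the plot of Rsad2 and Cmpk2, and Gbp2 is lowest in tumor 2, where Irf1 is highest.

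The rest of the pathway was read from a list of 35 genes. The 10 interferon genes on it (Ifnb1, 4 Ifna genes, Ifne, Ifnk, Ifng, Ifnl2 and Ifnl3) had 0 counts in all 6 tumors, which allows a level of up to 0.495 to 1.24 TMM-scaled CPM per gene and tumor. The receptors were present. Ifnar2 had 91.5 to 170 TMM-scaled CPM and Ifnar1, the other chain of the type I receptor, 5.6 to 17.7. Ifngr1 had 68.9 to 88.0 and Ifngr2 6.19 to 18.2. Ifnlr1, the chain particular to the type III receptor, had 12.8 to 36.2 with the highest level in tumor 3, and Il10rb had 35.9 to 59.8. Of the 35 genes, 20 passed the filter, and 19 of these differed between the libraries by more than counting error, against 89.5% of all genes. None of the 20 had a slope on the hypoxia score that passed edgeR's quasi-likelihood test, as none of all genes did. Of these slopes, 12 were negative and 8 positive, against 53.2% negative over all genes.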

How the data were processed

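Epithelial cells sorted from 6 B20-4.1.1-treated tumors were profiled with QuantSeq 3′ libraries that carry molecular identifiers. Reads were trimmed (bbduk), aligned to GRCm38/mm10 (STAR 2.5) and assigned to genes (HTSeq) by the authors, who deposited raw read counts per gene. Whether identifiers or strand were used in counting, and the annotation release, are not given in the sources used here, so overlapping and antisense genes are uncertain (16 members share exon bases with another gene, 1 of them, Irf7, within its last 300 exon bases), and intervals cover counting error only. Lines that name no gene were left out. The members and lists were chosen with earlier results of these data known, and all members are named. The value of 1 other gene of the pathway is not reported here.

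Gene names and exon lengths came from GENCODE M21 (47224 of 47643 identifiers matched). Genes were filtered with filterByExpr (minimum count 10, minimum total 15, group size 3). edgeR 4.0.16 gave TMM factors (0.911 to 1.06), the likelihood ratio test with dispersion 0 and the quasi-likelihood slope, with Benjamini-Hochberg adjustment over 12088 genes and a threshold of 0.05. Both edgeR tests were run on simulated counts with 200 changed genes. The simulated slopes were steeper than that of any member, so this check does not show whether slopes of the members' size would be found. Alternatives were other scalings, pseudocounts and filters, DESeq2 1.42.0, the identifier prefix as a term, and tumors left out. Promoters came from RefSeq (GRCm38.p6). R 4.3.3 and Python 3.11.15 were used. Vehicle-treated tumors were not analysed here.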

Additional observations from a re-analysis of the deposited data

Results flagged for a closer look

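Dixon's 95% critical value for 6 values was applied to the distance of the highest or lowest tumor from its neighbor as a ratio to the whole range. Chance passes it in about 1 group in 20, and 15.1% of all genes passed it here. Among the 42 genes, 4 passed, a smaller share than that of all genes. The number depended on the scale, with 5 members past the value on log2 levels. Irf7 was high in tumor 1 (ratio 0.636), at 135 TMM-scaled CPM against 52.4 to 82.6. Ddx58 was high in tumor 4 (ratio 0.852), at 77.8 against 50.4 to 54.5. Parp14 was high in tumor 2 (ratio 0.719), at 141 against 72.7 to 91.8. Dtx3l was low in tumor 1 (ratio 0.822), at 24.4 against 56.3 to 63.2. Tumor 3 was high for the summed leukocyte markers (ratio 0.822), at 222 against 16.1 to 52.7, and for the summed erythroid markers (ratio 0.924), at 816 against 5.63 to 67.4. The cause of these gaps was not tested.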

How the results depend on the processing

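Of 275 values recomputed under alternatives for 27 results, 242 kept their direction and their side of the threshold or moved by less than the spread. The SD of the 6 median deviations was 0.13, and small changes of sign were counted as unchanged. In tumor 1 the median deviation was 0.016 without tumor 3, against -0.041. A slope that shrank was counted as unchanged too, as for Parp14, with -0.08 without tumor 2 against -0.50. With library totals alone, the median deviation of the members in tumor 6 was -0.088 in place of 0.04, while the median of all genes there moved to -0.11, and the members relative to all genes were 0.02 in place of 0.03. Without the 10 most abundant genes in the totals, the median summed level was 3272 CPM in place of 2690 TMM-scaled CPM, since the totals are smaller. The number of gene pairs that passed, 2, became 0 with library totals alone and 0 to 0 with each tumor left out in turn, where 5 tumors allow 120 orders and no p below 0.00833. With 1 tumor left out in turn, r lay between -0.77 and 0.57 for Irf7 and Isg15 (-0.38 with all tumors), between -0.53 and 0.25 for Isg15 and Usp18 (-0.06) and between -0.49 and 0.90 for Rsad2 and Cmpk2 (-0.01). The highest of these values came without tumor 1, tumor 5 and tumor 1. With the pair of tumors farthest from the median left out, r turned to 0.063, 0.18 and 0.89, and with library totals that of Rsad2 and Cmpk2 turned to 0.11. The cause of these turns was not tested. The number of members that differed beyond counting error was 37 to 41 with 1 tumor left out (88.1 to 97.6%, against 75.2 to 88.1% of all genes) and 37 at an adjusted p under 0.001 (88.1%, against 76.9%). No member had a slope that passed under any alternative run. Over all genes, 0 slopes passed, against 15 with DESeq2, 10 without the filter, 3 with a score from log2 levels and 2 without tumor 1. No paired analysis was possible because the 6 tumors form 1 group. Depth limits Ifit2, Oas1a and Oasl1, which rest on 3 to 36 counts per tumor.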
